A study of Drosophila melanogaster with 3 samples.

Results

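Binding of the chromatin protein Dek was examined at 6 genes of the embryonic tracheal system, trh, btl, bnl, vvl, kn and rib. The genes were chosen by name in the dm6 annotation, 6 of 13968 protein-coding genes. Every peak summit inside a gene or within 5 kb of it was collected, and the gene with these flanks is called its window here. The material was whole embryos of mixed sex, 0 to 24 h old, from a transgenic Drosophila line carrying a Dek transgene tagged C-terminally with GFP. Chromatin bound to the fusion was recovered with an antibody to GFP, per the sample descriptions, although the antibody field of the labels reads Dek, and sequenced (ChIP-seq) in 3 biological replicates, which formed 1 group with no second condition. An untagged line and an input library were not analysed here. Tracheal cells are a small part of a whole embryo, and the peak lists cannot tell in which cells a site was bound.

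The tracheal system of the fly embryo is a network of epithelial tubes that carries air to the tissues. It arises from paired clusters of ectodermal cells. The transcription factors Trh, a bHLH-PAS protein that acts with its partner Tgo, and Vvl, a POU-domain protein, give these cells their identity. Branches then grow towards sources of the FGF ligand Bnl, which is made by surrounding cells and bound by the FGF receptor Btl on tracheal cells. Rib is a BTB-domain nuclear protein needed for tube growth in the trachea and the salivary gland. Kn, also called Collier, is a transcription factor of the EBF family that is best known for roles in head segmentation, muscle identity and the blood-forming lymph gland, so its place among tracheal genes rests on the choice of members.

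The authors called 30000 peaks in each of the 3 replicates and 30000 on the pooled reads. Their list after an irreproducible discovery rate (IDR) threshold held 4736, exactly the strongest of the pooled list, so a place in it reflects pooled signal and not an even rank over replicates. These peaks had signals from 164 to 4883 and a median of 267. Peaks are given by their place in a list, where place 1 has the highest deposited signal. The signal is the authors' value on an unstated scale, so it was compared within a list only. The number of reads per sample is unknown.

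Dek-GFP peaks of the IDR list were found at trh, bnl, kn and rib, and none was found at btl or vvl. The 4 genes held 10 IDR summits, with 1 at trh, 2 at bnl, 3 at rib and 4 at kn. This count of 4 in 6 stands beside 50.4% of all protein-coding genes with an IDR summit in the same kind of window. Within the gene itself the count was again 4 of 6, beside 11.6% of all protein-coding genes. All 4 genes with a summit were 10 kb or longer, whereas the median protein-coding gene spanned 2164.5 bp. The members without one, btl and vvl, were the shortest of the 6, at 7458 and 4784 bp. Among the 1985 protein-coding genes of 10 kb or longer, 64.4% had an IDR summit in the window and 40.8% had one in the gene itself. With 6 chosen genes no test of the count was made.

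**Figure D1:**
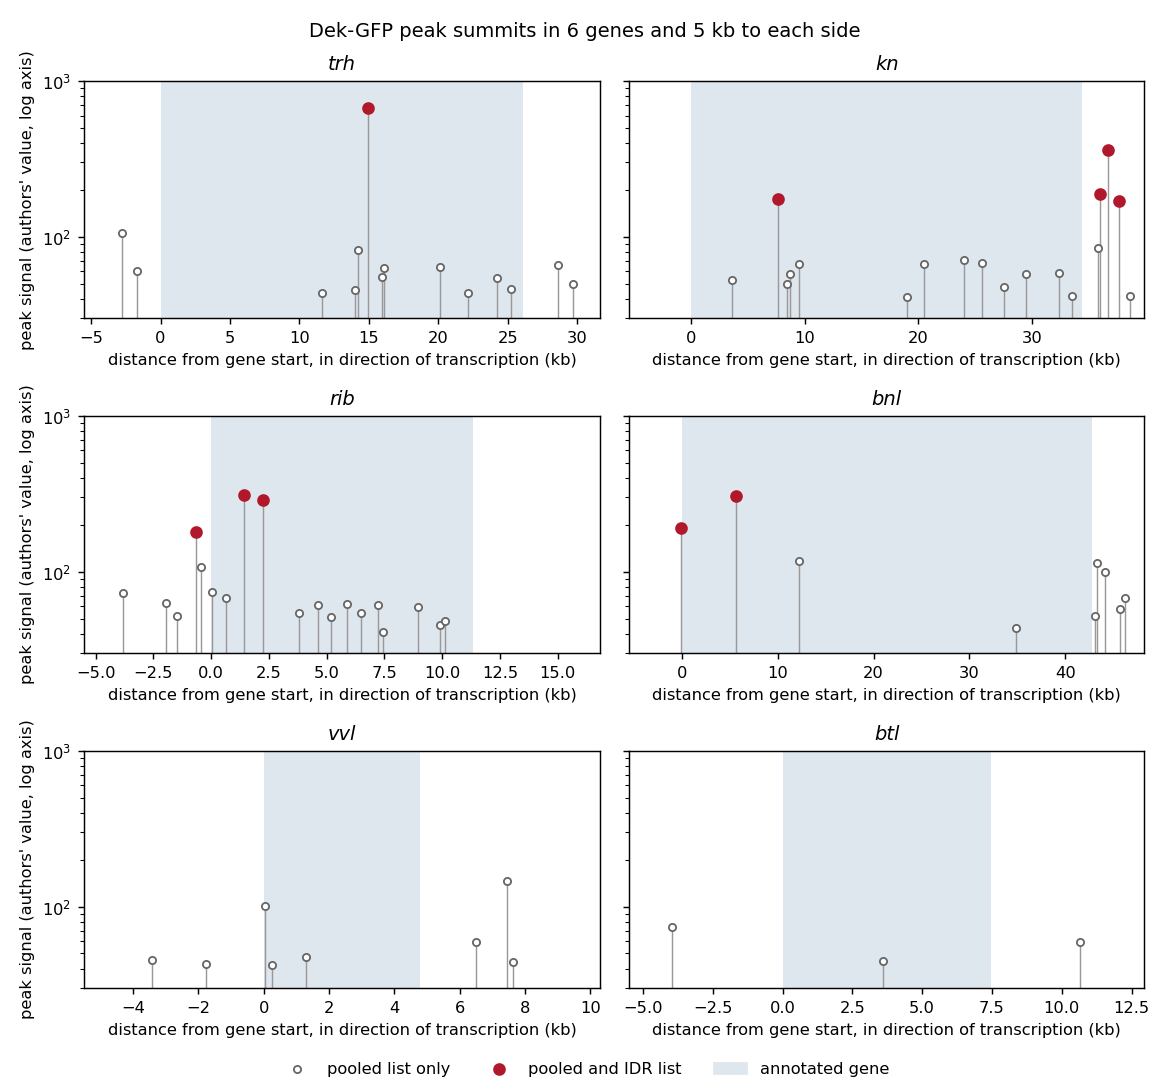
Pooled peak summits in each of the 6 genes and 5 kb to each side, by distance from the annotated gene start in kb (x axis) and by the authors' signal on a log axis (y axis). Filled points are also in the IDR list and the shaded band is the gene. The highest point is at trh, with a signal of 672, the 3 filled points past the end of kn lie by the neighbours BEAF-32 and Spred, and vvl and btl have open points only.

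The strongest of the 10 peaks lay in trh, the gene for the transcription factor that specifies tracheal cells. The gene runs from 366524 to 392633 on the minus strand of arm 3L, with 7 annotated transcripts that start at 2 sites, 392633 and 377316. The summit, at 377729, lay 413 bp upstream of the inner start site and inside an intron of the long transcripts, 14904 bp from their start. Its signal was 672, which put it in place 467 among the IDR peaks. In replicates 1, 2 and 3 the peak stood in places 509, 521 and 479, with signals of 246, 245 and 192 on the scale of each list. These places lie closer together than those of any other IDR summit of the 6 genes. The replicate summits lay between 13 and 33 bp from the IDR summit. No IDR summit was found near the outer start site. In the pooled list the nearest summits upstream of it had signals of 60.1 and 106, both beside lncRNA:CR43969. The DNA at the trh summit is shown because this is the strongest site among the members. It was read 5′ to 3′ on the strand of trh, at chr3L:377679-377779, with the first of its longest runs of A and T in capitals.
trh: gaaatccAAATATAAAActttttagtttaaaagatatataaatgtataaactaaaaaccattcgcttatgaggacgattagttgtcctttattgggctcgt
Of these 101 bases, 27.7% were G or C.

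The FGF ligand gene bnl, on the minus strand of arm 3R from 19794073 to 19836817, had an intronic and a promoter peak. The intronic summit, at 19831198, lay 5619 bp downstream of the single start site, and its signal of 306 ranked 1961 among the IDR peaks. It stood in places 2097, 1779 and 2012 of replicates 1, 2 and 3, so each replicate ranked it much alike. The promoter summit, at 19836921, lay 104 bp upstream of the start site, with a signal of 192 in place 3874. Its places in replicates 1, 2 and 3 were 7697, 3335 and 2642. Replicate 1 was thus the low one, and there the peak fell outside the 4736 strongest. Both sites are shown because they differed in base composition. They are given on the strand of bnl, the intron at chr3R:19831148-19831248 and the promoter at chr3R:19836871-19836971. Capitals mark the longest run of A and T in the intronic sequence, and in the promoter sequence the overlapping matches to GAGAG, the core bound by the GAGA factor, here as CTCTC on the strand shown.
bnl intron: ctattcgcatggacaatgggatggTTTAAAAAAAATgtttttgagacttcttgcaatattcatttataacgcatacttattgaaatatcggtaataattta
bnl promoter: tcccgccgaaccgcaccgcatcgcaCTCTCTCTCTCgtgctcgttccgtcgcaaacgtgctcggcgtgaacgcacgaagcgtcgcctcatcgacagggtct
G and C made up 27.7% of the intronic sequence and 64.4% of the promoter sequence. The remaining 7 pooled summits of the bnl window were not in the IDR list. Among them were 1 in the long intron, 12183 bp from the start site with a signal of 117, and 1 that lay 735 bp upstream of tRNA:Thr-AGT-1-7, a tRNA gene inside bnl, with a signal of 43.3. The other 5 lay past the 3′ end of bnl, where tRNA:Ala-AGC-2-11 was the nearest start site, with signals of 51.6 to 114.

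The gene rib, for the nuclear protein of tube growth, had 3 IDR summits within a short stretch around its first start site. It spans 19270078 to 19281396 on the plus strand of arm 2R and has 2 start sites. Summits at 19271497 and 19272311 lay in an intron, 1419 and 2233 bp downstream of the first start, 814 bp apart. The former, with a signal of 312, ranked 1906 among the IDR peaks and stood in places 2333, 1553 and 2282 of replicates 1, 2 and 3. The latter had a signal of 289 in place 2126 and stood in places 2194, 3507 and 1195. Which of the intronic peaks was stronger therefore differed between replicates, since replicate 2 ranked the first higher and replicates 1 and 3 the second. The upstream summit, at 19269442, lay 636 bp upstream of the first start, outside the promoter limit of 500 bp. It had a signal of 180.2 in place 4200, and its places in the replicates were 3597, 4600 and 7455. With 14.1 IDR summits per 100 kb, the rib window was the densest of the 6, beside 3.44 per 100 kb over all arms. The windows of kn, bnl and trh held 9.01, 3.79 and 2.77 per 100 kb. A window around a gene always holds promoters, whereas the whole arms include gene-poor sequence, so these densities are a description only.

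Of the 4 IDR summits in the window of kn, 3 lay beyond its 3′ end at the start sites of neighbouring genes. The gene spans 14772650 to 14807061 on the minus strand of arm 2R. BEAF-32, which encodes a boundary element binding protein, ends at 14772630, only 20 bp from the 3′ end of kn. The strongest peak of the window had its summit at 14770376, 93 bp upstream of a start site of BEAF-32, with a signal of 363 in place 1477. It stood in places 1245, 2339 and 1304 of replicates 1, 2 and 3. Another summit, at 14771054 and 138 bp downstream of a BEAF-32 start site, had a signal of 189 and places 8448, 2704 and 9527, high in replicate 2 alone. The last of these, at 14769425, lay 2 bp from the start site of Spred, a gene for an inhibitor of Ras signalling, with a signal of 171 and places 7280, 3852 and 2462. The nearest start site of kn itself was at least 25973 bp away from each of them. The remaining summit, at 14799438, lay inside kn, 482 bp upstream of the second of its 3 start sites. It had a signal of 174 in place 4362, and its places in replicates 1, 2 and 3 were 19337, 6328 and 4786. This was the only one of the 10 summits that fell outside the 4736 strongest peaks in every replicate.

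The FGF receptor gene btl, from 14075772 to 14083229 on the plus strand of arm 3L, had only weak peaks. In the pooled list 3 summits lay in its window, with signals of 74.3, 59.5 and 45.1, all under the lowest IDR signal of 164. The weakest was the only one within btl, in an intron, and the summit with a signal of 59.5 lay in the 3′ UTR of CG8100. Of the 3, 0 lay in a peak of all 3 replicates. Within btl itself the strongest peak of each replicate stood in places 13869, 23678 and 19581 of replicates 1, 2 and 3. In replicates 1 and 2 this was the intronic site, and in replicate 3 a summit 435 bp downstream of a start site.

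The POU-domain gene vvl, from 6790158 to 6794941 on the plus strand of arm 3L, came nearer to the IDR list. Its strongest pooled peak had a signal of 146 in place 5563, with the summit at 6797592, in intergenic DNA 2651 bp past the 3′ end of the gene. In replicates 1, 2 and 3 it stood in places 6862, 6980 and 7195. The replicates thus ranked it almost alike, each below the 4736 strongest. The summit at the start of vvl, 44 bp downstream of the start site, had a signal of 101 and stood in places 15566, 9750 and 16198. The downstream site is shown as the strongest recurrent site among the members that was not in the IDR list. It is given on the plus strand at chr3L:6797542-6797642, with the longest run of A and T, 31 bases, in capitals.
vvl downstream: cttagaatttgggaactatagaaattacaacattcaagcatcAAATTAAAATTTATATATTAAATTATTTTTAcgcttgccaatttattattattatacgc
G and C made up 21.8% of it, the lowest share among the 4 sequences shown.

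All 10 IDR summits lay in some peak of each of the 3 replicates, a property of 86.0% of the IDR list. The full replicate lists reach far down, to −log10 q values of 0.186, 0.406 and 0.407. Among the 4736 strongest peaks of each replicate, 5 of the 10 summits were found in all 3 replicates, 3 in 2, 1 in 1 and 1 in none. The count in all 3 was 3 of 10 when 50% of the IDR peak had to be overlapped. Over the whole IDR list, 49.5% of the summits were found in all 3. The 5 were those of trh, the intron of bnl, both intronic sites of rib and the BEAF-32 promoter in the kn window. Each of the 4 genes with an IDR summit thus had at least 1 such summit in its window, as had 33.4% of all protein-coding genes, but the one of kn is a neighbour's. Of the other 5, replicate 1 ranked 3 lowest, those at the promoters of bnl, kn and Spred, and replicate 3 ranked the remaining ones lowest.

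**Figure D2:**
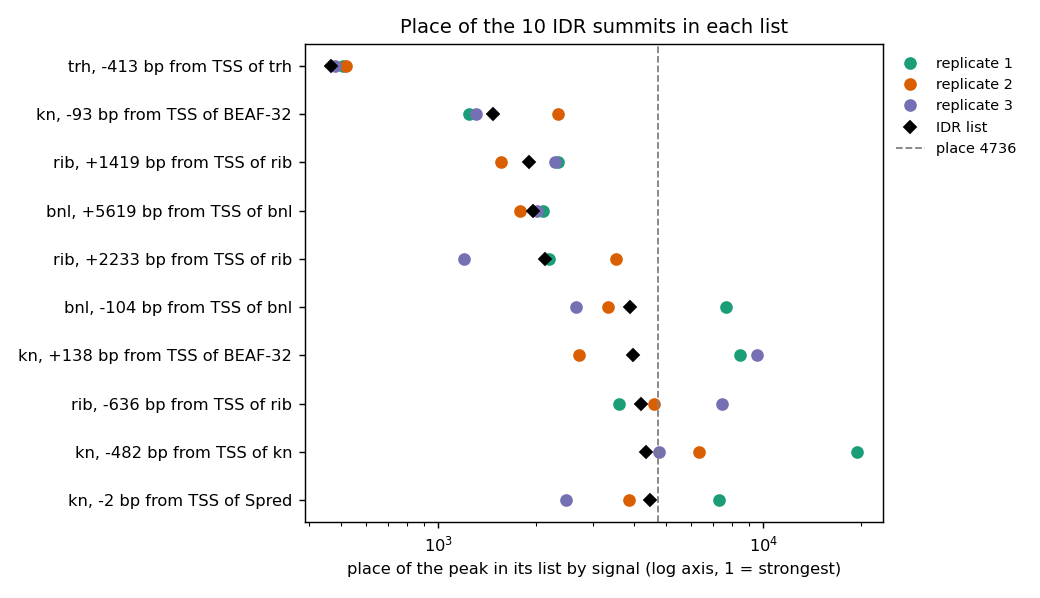
Place of each of the 10 IDR summits in the IDR list and in each replicate list (x axis, log scale, 1 is the strongest), with the summits on the y axis named by window and by signed distance to the nearest start site. The dashed line is place 4736. The trh points lie together between 467 and 521, whereas the points of the kn promoter summit spread from 4362 to 19337.

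By the strongest peak in the window, the median place over the 3 replicates was 509 for trh, 1304 for kn, 1553 for rib, 2012 for bnl, 6980 for vvl and 10128 for btl. The range of trh, 479 to 521, did not overlap that of kn, 1245 to 2339. The genes kn, rib and bnl did not differ beyond their spread, since rib ranged from 1195 to 2194 and bnl from 1779 to 2097. A gap followed between bnl and vvl, which ranged from 6862 to 7195. The ranges of vvl and btl overlapped, with btl between 7094 and 18021. For btl each replicate's place came from a different site, none of them within btl. For rib the place of replicate 2 came from the other intronic site than those of replicates 1 and 3. With the gene alone, kn had a median of 6328, with places 10940, 6328 and 4786, below rib and bnl. The places of replicates 2 and 3 were at the IDR summit inside kn, where replicate 1 stood in place 19337. That of replicate 1 was at another site, in an intron. The gene-only medians of vvl and btl were 13472 and 19581, also taken over different sites. With 3 replicates, a paired exact permutation test cannot go below p = 0.25, so the order was not tested.

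**Figure D3:**
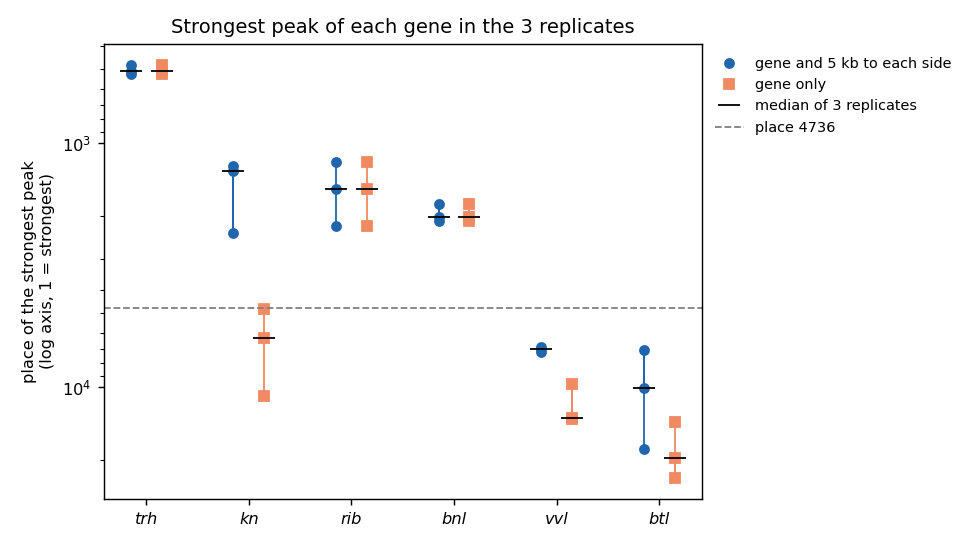
Place of the strongest peak of each gene in replicates 1, 2 and 3 (y axis, log scale, 1 is the strongest), for the gene with 5 kb to each side and for the gene only. Bars mark the median, lines join the 3 replicates and the dashed line is place 4736. The strongest peak of a gene can be a different site in each replicate. The 3 trh values stay between 479 and 521 in both, and kn drops to between 4786 and 10940 when its neighbours are left out.

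Set among all protein-coding genes, 10.1%, 10.2% and 9.21% had a stronger peak in their window than trh in replicates 1, 2 and 3. For vvl the shares were 57.8%, 60.3% and 57.6%, and for btl 66.0%, 60.6% and 74.4%. For the 4 members with an IDR summit, the genes most like them in the places of their strongest peak were listed, by the distance between log10 places over the 3 replicates. For trh they were Gs2, a glutamine synthetase gene with places 504, 511 and 437, and Eip63F-1, with 472, 471 and 472. Gart, of purine synthesis, and CG31908 share a peak and were nearest to bnl, with places 2043, 1792 and 2073. For rib they were CG12290 and CG4467, and for the kn window toc and Agps. The likeness is in place alone.

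Below the IDR threshold the 6 windows held many weak summits. The pooled list had 71 in all, with 19 at rib, 18 at kn, 14 at trh, 9 at bnl, 8 at vvl and 3 at btl. The replicate lists had 75, 66 and 63 in all. All 6 genes had a summit in their window in the pooled list, as had 78.3% of all protein-coding genes, and in the lists of replicates 1, 2 and 3, as had 85.8%, 79.1% and 80%. Of the 61 pooled summits that were not in the IDR list, 7 lay in a peak of all 3 replicates. These were 2 each at trh, vvl and rib and 1 at bnl, and 0 at kn and btl. The 2 at trh lay in the same peak of each replicate, so the replicate lists do not hold them as separate sites. At rib, the summit 427 bp upstream of the first start shared its peaks of replicates 1 and 3 with the upstream IDR summit. Over the whole pooled list, 28.5% of summits lay in a peak of all 3 replicates, and for all 71 pooled summits of the windows the count was 17.

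Of the 10 IDR summits, 6 were at a promoter, 3 in an intron, 1 in intergenic sequence and 0 in a coding exon. Over the IDR list as a whole the promoter share was 56.2% and the intron share 30.9%. Only 3 of the 6 promoter summits belonged to a member gene, those of trh, bnl and kn, and 22.8% of all protein-coding genes had an IDR summit within 500 bp of a start site. The 71 pooled summits included 18 at promoters, 25 in introns, 13 in intergenic sequence and 10 in coding exons. The coding exon summits had signals of 45.6 to 66.3, for example 1 in vvl with 47.2 and 1 in trh with 62.8. In replicate 3, 13 of 63 summits were in coding exons, in replicate 1 7 of 75 and in replicate 2 5 of 66.

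The summits were mostly AT-rich. Within 100 bp of the 10 summits the GC content was 35.7% ± 10.6 (SD over summits, n = 10), and it was 34.7% ± 7.39 (SD, n = 4736) over the IDR list. It was lower at the summit than 500 bp to either side in 8 of 10, a property of 81.6% of the IDR list. The intronic site of rib nearest to its start was lowest, at 24.9%, against 51.2% in its flanks, and the trh site had 28.9% against 53.7%. The exceptions were the promoter summits of bnl, with 58.7% against 26.6%, and of kn, with 50.7% against 40.0%.

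Letters that match the sites of tracheal regulators were searched around the summits. On both strands within 100 bp, 0 of 10 summits held TACGTG, the site of Trh with Tgo, and 3.89% of all IDR summits held it. The POU octamer ATGCAAAT, the EBF site (the family of Kn), the Grh site AACCGGTT, the DREF site TATCGATA, the Zelda site CAGGTAG and the ETS site CCGGAAGT also had 0 matches. Their shares over the IDR list ran from 0.0633% for the EBF site to 4.18% for the DREF site. GAGAG was found at 4 summits, 1 each at bnl and in the kn window and 2 at rib, beside 19.5% of the IDR list. The bnl promoter held 7 matches, among them the overlapping ones shown above in capitals. The other 3 summits held 1 each. A missing match says only that these letters were not in the windows searched.

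Genes that act with the members were described from lists by role. Of 51 such genes, 31 had an IDR summit in the window, 60.8% beside 50.4% of all protein-coding genes, and 33 of the 51 were 10 kb or longer. The count fell to 20 of 51 in the gene alone, beside 11.6% of all protein-coding genes. It was also 20 with the strongest 50% of the IDR peaks, beside 34.5%. Among protein-coding genes of 10 kb or longer, 64.4% had an IDR summit in the window and 40.8% had one in the gene itself. A summit within 500 bp of a start site of the gene was present in 14 of 51, or 27.5%, beside 22.8%. FGF signalling genes had 9 of 10 with a summit in the window and 5 of 10 at a start site. All FGF signalling genes but Ras85D and htl were 10 kb or longer. The hypoxia response genes sima, Hph and Vhl, which adjust bnl and btl to oxygen, all had a summit in the window, that of Vhl not at a start site. The list of EGF and Dpp signalling in branching had 6 of 10. The genes of this list without an IDR summit in the window were rho and tkv and, from other pathways, the ligand genes hh and wg. Fusion and terminal cell genes had 3 of 6, determination and branch identity factors 5 of 10, and tube matrix and septate junction genes 5 of 12. No determination factor had a summit at a start site. The median place of the strongest pooled peak was 1331 for FGF signalling and 2564 for the listed genes, without the 4 that had no pooled summit. For all protein-coding genes with a pooled summit it was 2904. No median was taken over genes of like length.

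Each of the 10 FGF signalling genes had a stronger pooled peak in its window than btl, whose best place was 13082. Mkp3, which encodes a phosphatase that dampens ERK signalling, had a summit 446 bp from a start site with a signal of 842 in place 315. It stood in places 390, 312 and 316 of the replicates, higher than the trh summit in each. A summit 302 bp from a start site of stumps, which encodes the adaptor of the FGF receptors, had a signal of 194 and places 2835, 6283 and 4010. The gene htl, for the FGF receptor of the mesoderm, had a signal of 189, and csw, for a phosphatase in receptor signalling, 188. Ras85D had 311, at a summit that was also within 500 bp of a start site of its neighbour Rlb1. The ETS-domain genes pnt and aop, nuclear effectors of the pathway, had 5 IDR summits each and none within 500 bp of their start sites. The FGF antagonist gene sty had 3, with a highest signal of 265.

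The strongest promoter peak among the listed genes was at spi, the EGF receptor ligand gene, with a signal of 1014 in place 219 and places 106, 268 and 544 of the replicates. The zinc-finger gene shn of the Dpp pathway had 15 IDR summits in its window, the most of the 51 genes, with 8 of them among the strongest peaks of all 3 replicates. Its start-site summit had a signal of 301. The type II receptor gene put had 215, but that summit lay 1 bp from a start site of the histone gene His4r. Among the hypoxia genes, the HIF-1 alpha gene sima had 276 and the prolyl hydroxylase gene Hph 242, at a summit that was also within 500 bp of the start site of lncRNA:CR45793. In the genes of cells that join or end branches, shot, a cytoskeletal linker gene, had 488, bs, the SRF gene of terminal cells, 189 and dysf, a bHLH-PAS gene of fusion cells, 174. The start-site summits of shot and Ras85D lay in no peak of replicate 1, and those of dysf and Hph in none of replicate 3. The apical polarity gene crb had 283, 1 bp from a start site.

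Several regulators of branch identity had no IDR summit in their windows. The knirps family genes kni and knrl had no pooled summit in their windows either, nor did exd or Gasp, a chitin-binding protein gene. Windows of the spalt genes salm and salr held pooled summits no higher than places 13280 and 9395. Trh's partner gene tgo had 1 IDR summit in its window, with a signal of 277, but replicate 1 had no summit there. The gene grh, a regulator of tube size, had 4, the highest with a signal of 468.

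**Figure D4:**
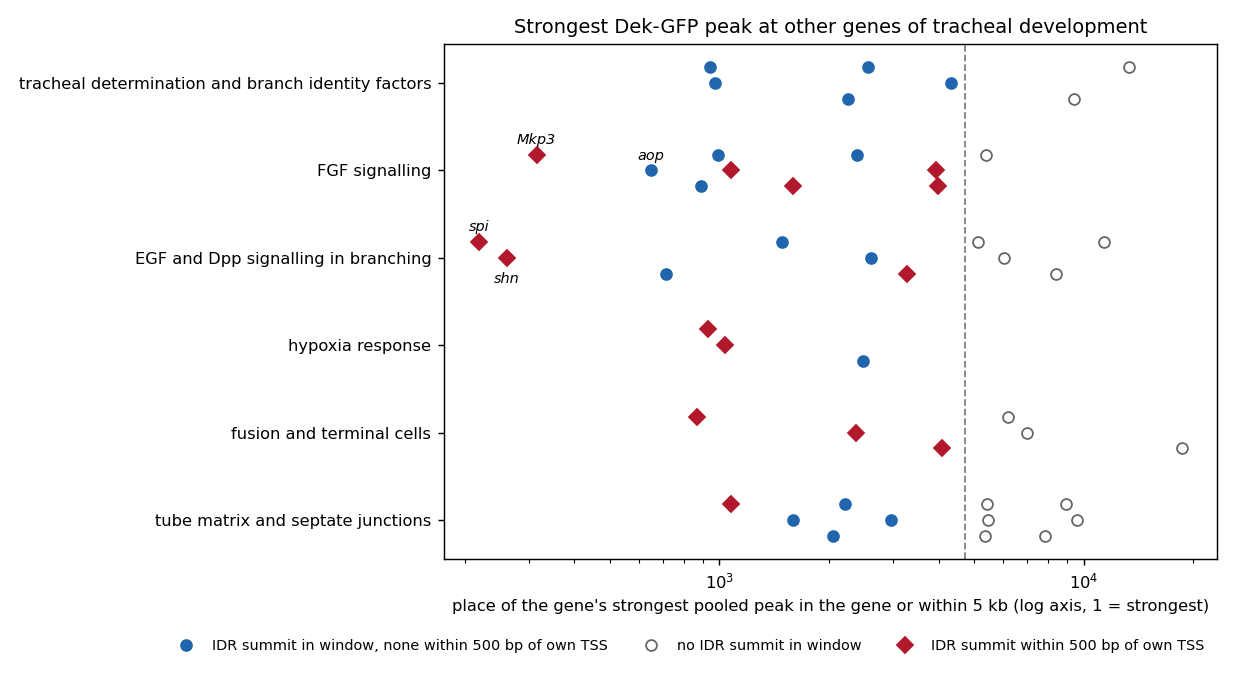
Place of the strongest pooled peak in the gene or within 5 kb (x axis, log scale, 1 is the strongest) for the listed genes by role (y axis). Diamonds are genes with an IDR summit near (500 bp) an own start site, filled circles those with one elsewhere in the window, open circles those with none, and 4 genes with no pooled summit are not drawn. The dashed line is place 4736. The highest points are spi at place 219, shn at 261 and Mkp3 at 315.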

How the data were processed

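The authors deposited narrowPeak lists on dm6 for the 3 replicates, for their pooled alignments and after the IDR threshold, per the deposited description files. Each list also derived from 1 further file of unstated content. The deposited peak signal has no stated unit, and the deposited −log10 q value served only to describe the lists. Which aligner, peak caller and IDR limit served is not given in the sources used here. IDR peaks are exactly the 4736 strongest of the pooled list.

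Summits came from the deposited offset (other unit, bases from the peak start) and were counted from 1. Gene models were from Ensembl release 115 without transposable elements, and sequence from RefSeq Release 6. All 6 members had the same start and end in both annotations, and 0 peaks passed the end of an arm. A summit was assigned, in order, to a promoter (within 500 bp of a start site), an untranslated or coding part of an exon, an intron or intergenic sequence. A replicate peak matched when it held the IDR summit. No test was made, since the samples form 1 group and no control was analysed here. Nothing could be scaled by depth, which is unknown.

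Members and gene lists were chosen with earlier results of these data known. All IDR summits of members were named, with listed genes that had an IDR summit within 500 bp of a start site, the gene of the nearest start site, and the 2 genes nearest in place. Other listed genes were named after their values were seen, and 1 gene that the rule names is not reported here. Of 52 listed symbols, Arl3 was found as dnd and hdc, with no single match, was left out. Promoter class, nearest start site and interval lookup were checked on simulated positions, whereas window assignment was checked only against its own bounds. Python 3.11.15, numpy 2.4.6, pandas 2.3.3 and matplotlib 3.10.9 were used. Alternatives covered the window, the promoter limit, the peak lists and leaving out each replicate.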

Additional observations from a re-analysis of the deposited data

How the results depend on the processing

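The 4 genes with an IDR summit stayed 4 with windows of 0, 2 and 10 kb, with the strongest 50% of the IDR peaks (2368), with any overlap of the peak and with only summits whose nearest start site was the member's own, an alternative chosen after seeing the data. The share of all protein-coding genes was 11.6%, 37.6% and 63.3% with those windows and 34.5% with the strongest 50%, against 50.4% as reported. With the strongest 50%, kn was counted only through the summit at the BEAF-32 promoter, in place 1477. The summit inside kn, in place 4362, was not among them. The number of summits fell from 10 to 5 in the gene alone and to 5 with the strongest 50% of the list. Of the 10, 3 were in all replicates when 50% of the IDR peak had to be overlapped and 10 with the full replicate lists, against 5 as reported. Leaving out 1 replicate gave 5 to 7. The median place of kn went from 1304 to 6328 in the gene alone, to 4786 with 2 kb and to 6328 with its own start site nearest. That of btl went from 10128 to 19581, 18021 and 18021, and that of vvl from 6980 to 13472 in the gene alone and with 2 kb. These shifts follow by construction from leaving out peaks. Leaving out any 1 replicate moved no gene's median place by more than the spread of its replicates. That outcome was nearly fixed in advance, since the median then lies midway between the 2 places left, so it shows no stability. Without replicate 1 rib came before kn. Of the 51 listed genes, 31 had a summit, 20 in the gene alone and 20 with the strongest 50%. No paired analysis was possible because there is 1 group. The unknown depth means that a gene without a peak cannot be called unbound.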
